A study of Mus musculus and Homo sapiens with 33 samples.

Results

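Glycolysis and hypoxia-response genes were followed in KPL cells, a murine lung adenocarcinoma line, after deletion of Lin9, the gene of a MuvB subunit; MuvB complexes switch cell cycle genes on and off. The set holds 33 genes, listed by symbol and chosen with earlier results of these data known. All 33 were found among the 38924 gene IDs of the count matrix, and 30 of them had enough reads to be tested. Of the 33 samples of the series, 6 are RNA-seq libraries of polyadenylated RNA, while 27 are ChIP-seq samples, not analysed here. The 3 libraries with 4-OHT came from KPL cells given 4-hydroxytamoxifen (4-OHT) for 72 hours at a dose the labels write as 10 nm, which per the labels deletes Lin9. The 3 control libraries came from KPL cells named EtOH in the descriptions. How 4-OHT reaches the Lin9 gene in these cells, and whether the line is 1 clone, is not given in the sources used here. No library had 4-OHT without the Lin9 deletion, so effects of the agent and of the deletion cannot be told apart. The labels do not describe the libraries of a group as separate cultures, so p-values reflect only how far these libraries scatter, and that scatter may be technical.

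Glycolysis splits glucose into pyruvate in a chain of cytosolic enzymes, and most tumour lines send much of that pyruvate on to lactate. The same genes are classic targets of the hypoxia-inducible factors (HIF), which bind the DNA core ACGTG in hypoxia response elements. When oxygen is present, prolyl hydroxylases of the Egln family mark the HIF alpha subunit, and the VHL ubiquitin ligase then has it destroyed.

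Library totals lay between 5894309 and 5913942 reads with 4-OHT and between 5859826 and 5876193 reads in control. Lin9 itself was at 18.3, 18.1 and 17.1 CPM (counts per 1e+06 reads of the scaled library) with 4-OHT and at 26.7, 21.3 and 27.3 CPM in control, with a log2 fold change of -0.49 ± 0.11 (SE; adjusted p = 0.0011 in edgeR). Reads of Lin9 thus remained in the whole-gene count. Among 8 lung adenocarcinoma and epithelial markers the surfactant gene Sftpc was at 0 reads in every library, and the lung lineage factor gene Nkx2-1 was low, at 4.74 ± 0.522 CPM with 4-OHT and 6.51 ± 1.29 CPM in control (SD, n = 3 each). Their summed level, mostly from Krt8, Krt18 and Krt19, was 5464 to 5618 CPM with 4-OHT and 5488 to 5560.1 CPM in control. Of the 6 markers of this list that were tested, 2 were lower, named after their values were seen: Epcam, at 171 ± 6.76 CPM with 4-OHT and 223 ± 2.66 CPM in control, and Cdh1, at 527 ± 1.67 CPM with 4-OHT and 581 ± 18.1 CPM in control (SD, n = 3 each; log2 fold changes of -0.38 and -0.14, adjusted p = 4.4e-12 and 0.0010). Over all genes tested 5.17% were lower, and 12.1% of those with a mean of at least 100 CPM, which Epcam and Cdh1 both have. Whether the fall of these markers bears on the members' values was not tested. Summed markers of fibroblasts (6 genes, Lum at 0), leukocytes (6 genes, Cd3e at 0) and endothelium (4 genes) stayed at or below 9.94 CPM in every library. In bulk RNA a lower share of expressing cells and less RNA per cell cannot be told apart.

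After 4-OHT, 11 of the 30 tested genes were higher and 1, Vegfa, was lower (quasi-likelihood test of edgeR, p under 0.05 after Benjamini-Hochberg adjustment over all genes). That is 36.7% of the tested members above control, where 9.79% of all 13355 genes tested were called, 4.61% higher and 5.17% lower. The genes that rose were the phosphofructokinase gene Pfkp and the aldolase gene Aldoa of the upper pathway, Pgk1, Pgam1, Eno1 and Pkm of the lower pathway, Ldha and Pdk1 at the pyruvate branch, the prolyl hydroxylase genes Egln1 and Egln3, and the mitophagy receptor gene Bnip3. Except for Egln3 and Bnip3 the rises were under 20%, and Pgk1, the clearest of them, rose by 18.7%. The median log2 fold change of the tested members was 0.12, against 0.00052 over all genes tested, and 26 of 30 members lay above 0, where 50.2% of all genes did. Among genes with a mean of at least 100 CPM, 6 of 13 members were higher, where 8.55% of 2375 such genes were. All 3 of the 4-OHT values lay above all 3 control values in 16 tested members and below them in 2, where 24.3% of all genes tested had groups apart, 12.1% above and 12.2% below. DESeq2 called 7 members higher and 1 lower, and all 8 had also been called by edgeR; over all genes it called 1.56% higher and 2.71% lower.

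**Figure D1:**
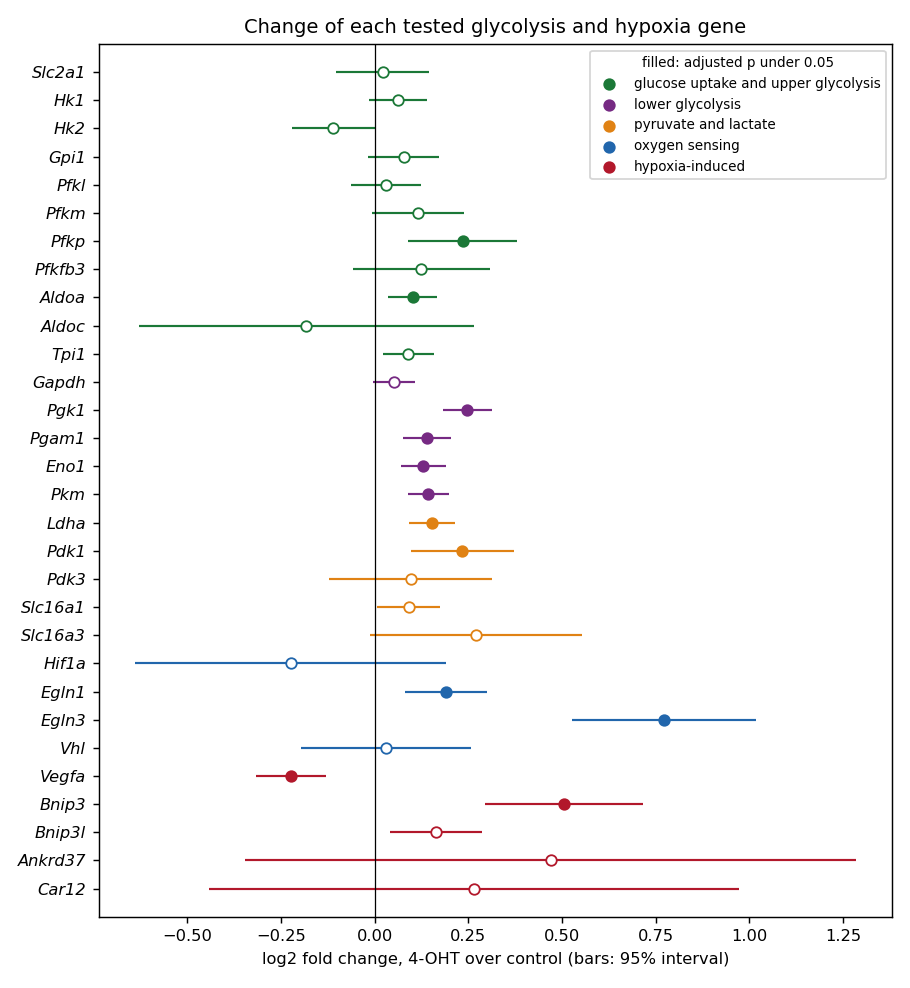
Each point is the log2 fold change, 4-OHT over control, of a tested gene, with its 95% interval as a bar, coloured by role and filled where the adjusted p is under 0.05. Most points lie to the right of 0; Egln3 (0.77) and Bnip3 (0.51) lie farthest right among the filled points, and Vegfa (-0.22) is the filled point on the left.

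Promoters are shown for 4 of the genes that rose, a pair of HIF feedback and mitophagy genes and a pair of glycolytic genes, because the members were chosen partly as hypoxia-response genes and the hypoxia response element core can be looked for in them. Each printed window holds the core, which not every gene that rose has, so the 4 do not stand for all of them. The windows run from 250 bases before to 50 after an annotated start (RefSeq, GRCm38.p6), written 5′ to 3′ on the gene's own strand, with ACGTG and its reverse complement CACGT in capitals. They are Egln3 at chr12:54203825-54204124 (minus strand), Bnip3 at chr7:138909457-138909756 (minus strand), Pgk1 at chrX:106186850-106187149 (plus strand) and the Ldha window at chr7:46845554-46845853 (plus strand), the more upstream of the Ldha pair on hand; the annotated gene begins further upstream, at 46842274.
Egln3: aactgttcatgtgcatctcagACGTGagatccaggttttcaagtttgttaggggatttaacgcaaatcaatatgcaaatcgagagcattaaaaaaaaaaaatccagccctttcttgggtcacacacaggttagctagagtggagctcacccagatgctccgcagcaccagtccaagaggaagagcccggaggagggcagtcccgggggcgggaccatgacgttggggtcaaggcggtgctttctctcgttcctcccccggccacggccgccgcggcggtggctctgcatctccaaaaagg
Bnip3: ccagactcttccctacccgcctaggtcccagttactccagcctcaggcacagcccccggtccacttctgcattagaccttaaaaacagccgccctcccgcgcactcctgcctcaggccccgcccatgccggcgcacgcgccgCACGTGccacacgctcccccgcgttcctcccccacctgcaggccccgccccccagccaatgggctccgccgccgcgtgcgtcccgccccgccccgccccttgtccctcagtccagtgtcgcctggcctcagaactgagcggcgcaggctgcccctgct
Pgk1: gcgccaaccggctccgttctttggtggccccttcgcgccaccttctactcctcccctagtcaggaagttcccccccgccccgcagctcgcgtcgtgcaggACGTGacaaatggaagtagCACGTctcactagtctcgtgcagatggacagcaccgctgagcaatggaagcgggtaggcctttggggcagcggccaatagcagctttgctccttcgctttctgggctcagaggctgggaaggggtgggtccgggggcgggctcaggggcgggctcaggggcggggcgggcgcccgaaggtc
Ldha: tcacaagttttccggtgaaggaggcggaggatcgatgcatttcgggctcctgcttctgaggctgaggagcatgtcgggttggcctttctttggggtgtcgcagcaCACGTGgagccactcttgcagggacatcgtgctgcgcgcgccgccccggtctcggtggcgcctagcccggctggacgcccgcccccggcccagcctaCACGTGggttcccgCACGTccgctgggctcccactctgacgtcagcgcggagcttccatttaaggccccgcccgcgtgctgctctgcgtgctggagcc

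The Egln3 window holds 1 match, 229 bases before the start. Bnip3 has the palindrome CACGTG, which counts once on each strand, 108 bases before the start. Pgk1 has 2 matches in opposite orientation, at 150 and 131 bases before the start. The printed Ldha window has 5, from 2 CACGTG palindromes and a single core, and the other Ldha window (chr7:46846832-46847131) has 0. Promoter windows were on hand for 32 of the 33 members, 46 windows in all, and not for Bnip3l. The core, read on both strands, stood in at least 1 window of 22 of these 32 genes (68.8%), against 29.6% of 9003 tested genes with a window, and in 54.3% of the members' windows, against 25.4% of 11618. Members' windows had a median GC content of 62.2%, against 60.7% for those of tested genes. Because the members were chosen partly as hypoxia-response genes, a higher share with the core can come from that choice alone. It is no result of the RNA counts. Of the 11 genes that rose, 8 had a match and Eno1, Pdk1 and Pfkp had none, beside 22 of all 32 members. Vegfa, which fell, had 1 match, in its window inside the gene (chr17:46025114-46025413). The window at the annotated start of the gene (chr17:46032328-46032627) had 0. TTTGAA or TTCGAA on either strand, the letters of the cell cycle homology region that MuvB complexes bind, stood in 15.2% of the members' windows, against 13.8% of windows of tested genes. Among the genes that rose it stood in 1, Pdk1. A match is a run of letters and not a measured binding site.

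The steps from glucose uptake to triose phosphate had 2 of 11 genes called, both higher, where 4.61% of all genes tested were, with a median log2 fold change of 0.08. DESeq2 called neither. Slc2a1, the glucose transporter GLUT1, was at 68.8, 73.9 and 73.0 CPM with 4-OHT and at 70.3, 74.7 and 67.5 CPM in control. Its change was 1.48% with a 95% interval of -6.85% to 10.5%. The groups overlapped fully.

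The hexokinases trap glucose in the cell as its phosphate. Hk2, the isozyme typical of tumours and muscle, was at 86.8, 85.4 and 87.1 CPM with 4-OHT and at 91.1, 94.3 and 94.6 CPM in control, and the groups did not overlap. The log2 fold change of -0.11 (SE 0.06) did not pass (adjusted p = 0.235), nor did that of the broadly expressed Hk1 (0.06, SE 0.04, adjusted p = 0.372). Hk2 made up 25.4% ± 0.373 of the reads of the pair with 4-OHT and 27.8% ± 0.757 in control (SD, n = 3 each; shares of reads, not scaled to transcript length).

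Phosphofructokinase is the committed step and exists as liver (Pfkl), muscle (Pfkm) and platelet (Pfkp) isozymes. Pfkp was at 51.5, 53.5 and 51.9 CPM with 4-OHT and at 42.8, 45.9 and 44.7 CPM in control, a clear separation of the groups, and rose by 17.7% (log2 fold change 0.23, SE 0.07, edgeR adjusted p = 0.025). It no longer passed without 4-OHT replicate 2 (adjusted p = 0.098), 4-OHT replicate 3 (0.0504), control replicate 1 (0.125) or control replicate 3 (0.064), and in DESeq2 (0.245). Pfkp overlaps Pitrm1 in the annotation, and Pitrm1 had a log2 fold change of -0.02. Neither Pfkl (log2 fold change 0.03, SE 0.05) nor Pfkm (0.12, SE 0.06) passed. Of the reads of the trio, Pfkp held 19.0% ± 0.259 with 4-OHT and 17.2% ± 0.962 in control, and Pfkl held 53.4% ± 0.464 with 4-OHT and 55.7% ± 0.466 in control (SD, n = 3 each). The ranges did not overlap for either share. Pfkfb3, which makes the allosteric activator of phosphofructokinase, had a log2 fold change of 0.12 (SE 0.09) and overlapping groups.

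Aldolase cleaves the sugar into trioses. Aldoa, its main form outside liver and brain, was at 524, 532 and 543 CPM with 4-OHT and at 499, 518 and 474 CPM in control. Every 4-OHT value was above every control value, though by only a few CPM at the closest, and the rise of 7.29% (log2 fold change 0.10, SE 0.03) passed with an adjusted p of 0.033. The call was lost without 4-OHT replicate 2, 4-OHT replicate 3, control replicate 1 or control replicate 3 (adjusted p 0.095 to 0.307), without the filter on low counts (0.051) and in DESeq2 (0.231). Aldoc, the brain form, had between 3.77 and 9.27 CPM in the 6 libraries. Gpi1, the isomerase after hexokinase, had a log2 fold change of 0.08 (SE 0.05, adjusted p = 0.373) and Tpi1, which interconverts the trioses, 0.09 (SE 0.03, adjusted p = 0.090). Tpi1 passed when library totals alone scaled the counts (adjusted p = 0.044).

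**Figure D2:**
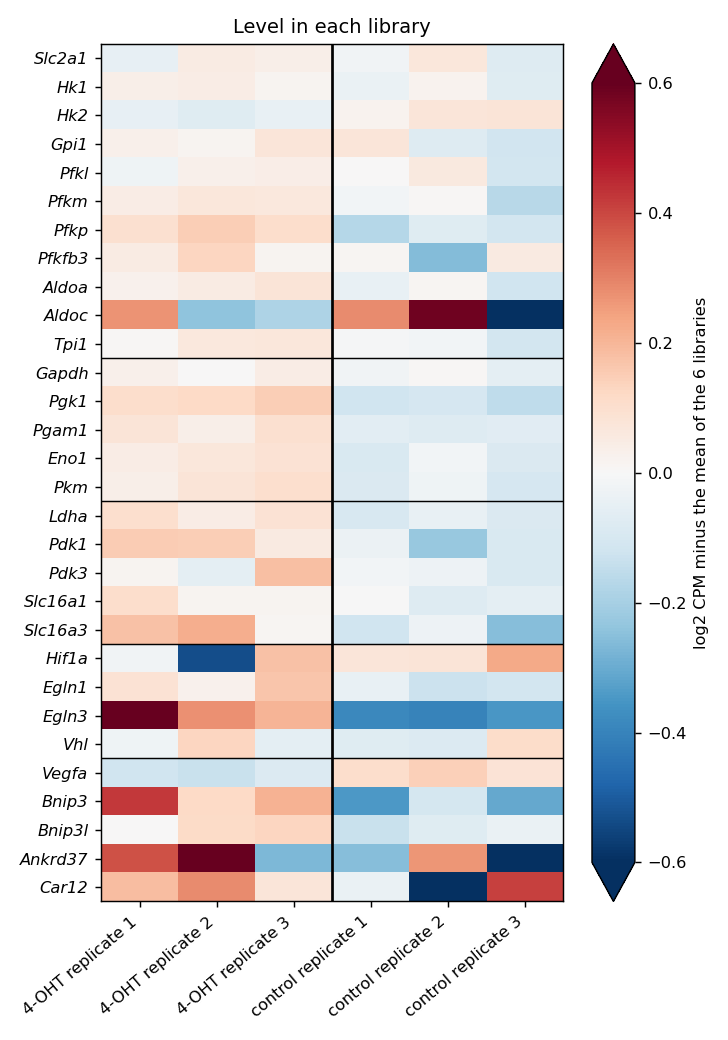
Each cell is the log2 CPM of a tested gene (row, grouped by role) in a library (column) minus the mean of that gene over the 6 libraries, with colours ending at 0.6 either way. The 3 columns of 4-OHT at the left are warm and the 3 control columns cool for genes such as Pfkp, Pgk1, Pgam1, Eno1, Pkm and Ldha. Vegfa and Hk2 are the other way round. The groups overlap in Slc2a1, Hk1, Gpi1, Pfkl, Pfkfb3 and Gapdh, among other genes, and Aldoc, Hif1a, Ankrd37 and Car12 are uneven within groups.

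The lower, ATP-yielding steps had 4 of 5 tested genes called, all higher, where 4.61% of all genes tested were. Their median log2 fold change was 0.14. All 5 had a mean of at least 100 CPM, where 8.55% of genes were called higher. Of the 11 upper genes 5 had such a mean, and 1 of these was called higher. The difference in counts between the upper and the lower part was not tested. Pgk1, which encodes the first ATP-forming kinase of the pathway, was at 492, 497 and 507 CPM with 4-OHT and at 422, 427 and 411 CPM in control. The groups stood well apart, and its log2 fold change of 0.25 (SE 0.03, adjusted p = 5.7e-09) had the smallest p of the set.

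Pgam1, the phosphoglycerate mutase, was at 572, 557 and 581 CPM with 4-OHT and at 519, 514 and 518 CPM in control (log2 fold change 0.14, SE 0.03, adjusted p = 0.00092). Eno1, the ubiquitous enolase, was at 876, 891 and 902 CPM with 4-OHT and at 799, 840.4 and 799 CPM in control (0.13, SE 0.03, adjusted p = 0.0011). Pkm, whose splice forms include the tumour-associated pyruvate kinase M2 that a gene-level count cannot separate, was at 2038, 2098 and 2136 CPM with 4-OHT and at 1873, 1954 and 1856 CPM in control (0.14, SE 0.03, adjusted p = 6.5e-05). All 3 genes kept the groups apart, with rises of 10.2%, 9.43% and 10.4%.

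Gapdh, widely used as a loading control, was at 1411, 1388 and 1426 CPM with 4-OHT and at 1362, 1389 and 1326 CPM in control. Its groups overlapped by 1 pair of values and its change of 3.61% (95% interval -0.314% to 7.70%) did not pass. The neuronal enolase gene Eno2 was not tested, with 4 reads in each 4-OHT library and 2 or 3 in each control library.

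**Figure D3:**
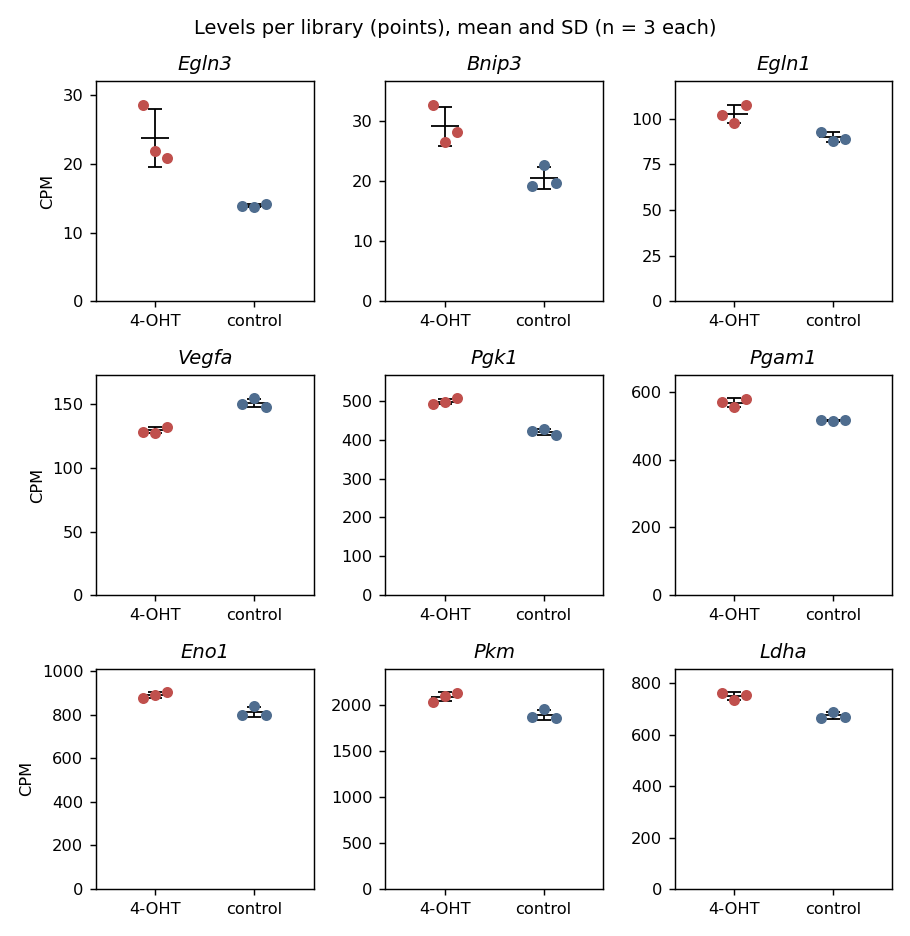
Points are the CPM of 9 genes in each library, 3 with 4-OHT (left) and 3 in control (right), with the mean and SD in black and each axis starting at 0. Egln3 and Bnip3 show the largest separation relative to their level, Vegfa is below control, and the glycolytic genes stand a small step above it.

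Summed over the 15 enzyme genes from hexokinase to pyruvate kinase, the level was 7088, 7161 and 7294 CPM with 4-OHT and 6631, 6808 and 6474 CPM in control, a ratio of means of 1.08. These genes thus held 0.709% to 0.728% of all counted reads with 4-OHT and 0.645% to 0.675% in control. Of the 14 that were tested, 10 had their lowest value of the 6 libraries in control replicate 3 and 7 their highest in 4-OHT replicate 3. Without control replicate 3, 8 members were called higher and 1 lower, with a median log2 fold change of 0.11, and without 4-OHT replicate 2 or 3 the calls also numbered 8 and 1. Over all genes tested, 450 of 13540 were higher and 540 lower without control replicate 3. These counts were 429 and 555 of 13543 without 4-OHT replicate 2, and 542 and 643 of 13557 without 4-OHT replicate 3.

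Near-identical copies bear on these values. In the matrix, Pgk1-rs7 (a Pgk1-related pseudogene in RefSeq) had 25542 reads over the 6 libraries, against 16188 for Pgk1. Pgam1-ps2 had 20445, against 19141 for Pgam1, and Gm3272 (Gapdh-ps16 in RefSeq) had 45686, against 48732 for Gapdh. Pgk1-rs7 (log2 fold change 0.25, SE 0.03) and Pgam1-ps2 (0.13, SE 0.03) were called higher like their parents, and Gm3272 (0.07, SE 0.03) was not called, nor was Gapdh. Gm5506, named after its values were seen and called Eno1b in RefSeq, had 1249, 1251 and 1273 CPM with 4-OHT and 1152, 1188 and 1148 CPM in control (log2 fold change 0.11). How reads that match several places were counted is not given in the sources used here, so the level of a parent and that of its copy cannot be told apart. With the reads of named pseudogenes (Gm5506 not among them) added to their parents, 11 members were again called higher and 1 lower, and also with only the protein-coding genes of RefSeq in the fit. Over all genes tested, 614 of 13351 were higher and 690 lower in the former fit, and 582 of 11548 and 649 in the latter. Neither fit can separate a parent from its copy. The called copies had log2 fold changes close to their parents', and the fit on protein-coding genes left members' counts as they were.

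**Figure D4:**
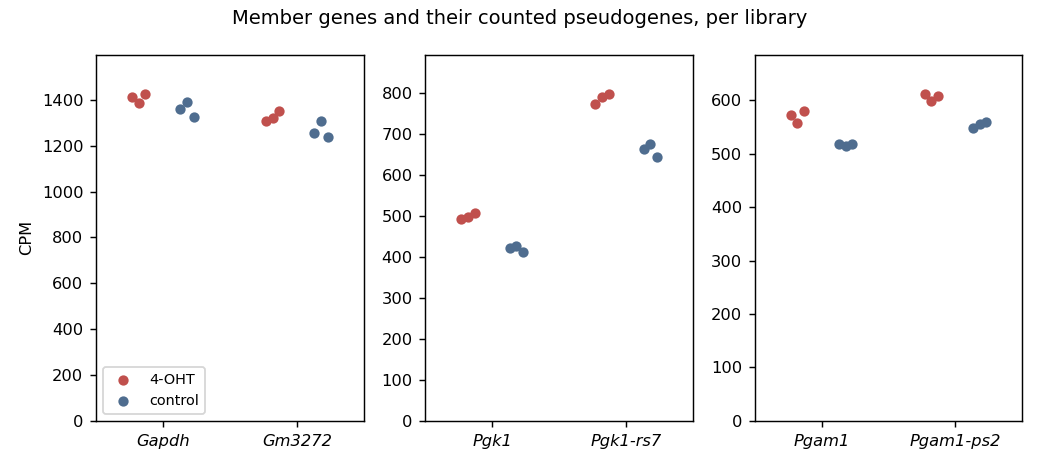
Points are the CPM per library of Gapdh, Pgk1 and Pgam1 and of the pseudogene with most reads for each, 4-OHT to the left of control within each gene. Pseudogene levels are close to or above those of the parent, and for Pgk1 and Pgam1 the 4-OHT points lie above the control points in parent and copy alike.

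At the pyruvate branch 2 of 5 tested genes were called, both higher, where 4.61% of all genes tested were. Ldha, the lactate dehydrogenase subunit that favours lactate formation, was at 763, 735 and 755 CPM with 4-OHT and at 665, 689.8 and 671 CPM in control. The groups were separate, and the rise of 11.2% passed (log2 fold change 0.15, SE 0.03, adjusted p = 0.00012). Its partner subunit gene Ldhb had between 1 and 4 reads in every library and was not tested.

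Pdk1, the kinase that shuts off pyruvate dehydrogenase and a HIF target, was at 63.6, 63.3 and 59.2 CPM with 4-OHT and at 55.8, 48.8 and 53.6 CPM in control, again without overlap. It rose by 17.6% (log2 fold change 0.23, SE 0.07, adjusted p = 0.0155). That call did not survive leaving out 4-OHT replicate 1 (adjusted p = 0.064), 4-OHT replicate 2 (0.076) or control replicate 2 (0.152), and in DESeq2 (0.197). Pdk3, its X-linked isozyme gene, had a log2 fold change of 0.10 (SE 0.11) and overlapping groups. The monocarboxylate transporter genes did not pass either: Slc16a1, which encodes MCT1, had 0.09 (SE 0.04, adjusted p = 0.186) and the lactate exporter gene Slc16a3 had 0.27 (SE 0.14, adjusted p = 0.266), although in both the groups did not overlap. The 95% interval of Slc16a3 ran from -0.01 to 0.55 on the log2 scale.

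Of the 4 oxygen-sensing members, the prolyl hydroxylase genes Egln1 and Egln3 were called higher, and Hif1a and Vhl were not called. Over all genes tested, 4.61% were called higher. Egln2, the related hydroxylase gene outside the member set and named here after its values were seen, had a log2 fold change of -0.05 (SE 0.07, adjusted p = 0.776) and overlapping groups. Egln3 (chr12:54178981-54203874, GRCm38.p6), a HIF target that feeds back on HIF, was at 28.7, 21.9 and 20.9 CPM with 4-OHT and at 13.9, 13.7 and 14.2 CPM in control. Its groups were far apart, with 4-OHT replicate 1 the highest, and it had the largest rise of the tested members, 70.7% (log2 fold change 0.77, SE 0.12, adjusted p = 1.0e-06). Over the 16 alternatives tried its log2 fold change lay between 0.62 and 0.86, and it passed in each.

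Egln1, the main HIF prolyl hydroxylase of most cells, was at 102, 97.7 and 108 CPM with 4-OHT and at 92.8, 87.8 and 88.8 CPM in control, without overlap. It rose by 14.0% (log2 fold change 0.19, SE 0.06, adjusted p = 0.0137), a call lost without 4-OHT replicate 3 (adjusted p = 0.116), control replicate 2 (0.068) or control replicate 3 (0.061), and in DESeq2 (0.175). Hif1a, the oxygen-regulated subunit itself, had few reads, at 5.77, 4.05 and 6.62 CPM with 4-OHT and 6.16, 6.18 and 6.86 CPM in control. Its groups overlapped, and the 95% interval of -0.64 to 0.19 on the log2 scale leaves its direction undetermined at this depth. HIF activity is set mostly by protein stability, which RNA counts do not show. Vhl was at 20.6 ± 1.47 CPM with 4-OHT and 20.2 ± 1.53 CPM in control (SD, n = 3 each), with a log2 fold change of 0.03 (SE 0.11).

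Of the 5 tested hypoxia-induced members 1 rose and 1 fell, where 4.61% of all genes tested were called higher and 5.17% lower. Bnip3 (chr7:138890836-138909506, GRCm38.p6), which targets mitochondria for autophagy, was at 32.7, 26.5 and 28.2 CPM with 4-OHT and at 19.2, 22.7 and 19.7 CPM in control. Its groups did not overlap, and it rose by 41.9% (log2 fold change 0.51, SE 0.11, adjusted p = 0.00029). Vegfa (chr17:46016993-46032377), the angiogenic growth factor gene, was at 129, 128 and 132 CPM with 4-OHT and at 150.5, 155 and 148 CPM in control. All 4-OHT values were below all control values, and it fell by 14.3% (log2 fold change -0.22, SE 0.05, adjusted p = 0.00028).

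Bnip3l, a mitophagy receptor gene related to Bnip3, was at 72.6, 78.4 and 79.3 CPM with 4-OHT and 66.1, 68.9 and 70.6 CPM in control. The groups did not overlap, but the log2 fold change of 0.16 (SE 0.06) missed the threshold (adjusted p = 0.080), which it passed without 4-OHT replicate 1 (0.044). Ankrd37, an ankyrin repeat gene induced by HIF, had 7 to 13 reads per library with 4-OHT and 5 to 10 in control, and the carbonic anhydrase gene Car12 had 12 to 14 with 4-OHT and 6 to 15 in control. Both had intervals more than a log2 unit wide. Car9, the carbonic anhydrase often used as a hypoxia marker, was not tested, with 3 to 9 reads with 4-OHT and 3 or 4 in control.

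**Figure D5:**
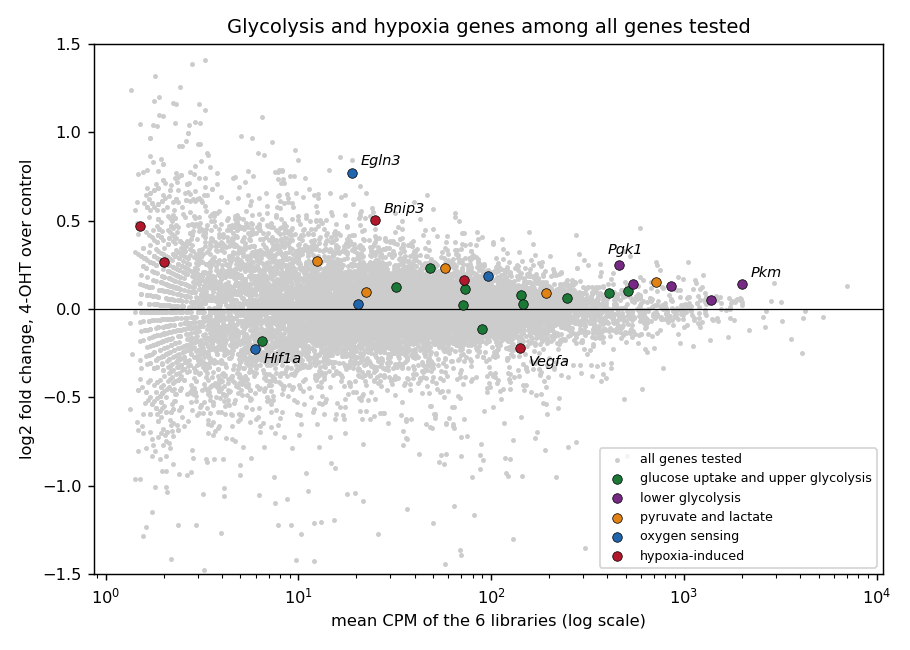
Grey points are all 13355 genes tested, by mean CPM (log scale) and log2 fold change of 4-OHT over control, with 11 genes outside the axis limits of 1.5 not drawn. Coloured points are the tested members by role; the glycolytic members with high CPM form a row just above 0, and Egln3 and Bnip3 stand above it.

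Neighbouring genes of the same pathways were read beside the members, and 9.79% of all genes tested were called in either direction. Of 25 other glycolysis genes, 13 were tested and 1 was called, above control, with a median log2 fold change of 0.03. The 1 was Bpgm, the bisphosphoglycerate mutase gene, at 38.0, 35.3 and 38.7 CPM with 4-OHT and 27.2, 30.9 and 31.5 CPM in control (log2 fold change 0.32, SE 0.09, adjusted p = 0.0098). Its groups did not overlap, and without control replicate 1 it did not pass (adjusted p = 0.118), nor in DESeq2 (0.143). Of 12 tested genes of pyruvate entry into mitochondria, 1 was called (8.33%), below control. Both counts are close to the share over all genes. The gene was Pdk2, an isozyme gene of Pdk1, with 27, 33 and 25 reads with 4-OHT and 43, 49 and 44 in control, a separation that gave a log2 fold change of -0.69 (SE 0.20, adjusted p = 0.0150). Pdk2 did not pass without 4-OHT replicate 1 (adjusted p = 0.058), 4-OHT replicate 3 (0.074) or control replicate 2 (0.073), and in DESeq2 (0.169).

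Of 8 tested pentose phosphate genes edgeR called 0, DESeq2 called 0 and 0 had an unadjusted edgeR p under 0.05; the median log2 fold change was -0.03. The transketolase gene Tkt, with the most reads among them, was at 304 ± 5.95 CPM with 4-OHT and 312 ± 1.57 CPM in control (SD, n = 3 each; log2 fold change -0.04, SE 0.04). Among 10 tested genes of oxygen sensing and HIF subunits 1 was called (10.0%), a share like the 9.79% of all genes tested. Cited2, which encodes a HIF-induced protein that competes for the HIF coactivator p300, was at 163, 151 and 160.2 CPM with 4-OHT and 128, 131 and 134 CPM in control, with no overlap (log2 fold change 0.27, SE 0.05, adjusted p = 6.3e-06).

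Among 30 tested other hypoxia-induced genes, 6 were higher, 4 were lower and 20 were not called (median log2 fold change 0.07). The 6 are 20.0% of the list and the 4 are 13.3%, again set against 4.61% and 5.17% of all genes tested. Angptl4, a lipase inhibitor gene, was at 78.5, 77.1 and 82.8 CPM with 4-OHT and 61.3, 63.0 and 60.7 CPM in control (log2 fold change 0.37, SE 0.06, adjusted p = 4.4e-06). Ddit4, which encodes the mTORC1 inhibitor REDD1, had 167, 154 and 184 reads with 4-OHT and 251, 243 and 275 reads in control (-0.62, SE 0.09, adjusted p = 2.5e-08).

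In both of these genes the groups did not overlap, Angptl4 above control and Ddit4 below. Other calls, named after their values were seen, were Ak4 (log2 fold change 0.78), Plod2 (0.40), P4ha2 (0.31), Ndrg1 (0.31) and Slc6a6 (0.17) above control and Stc1 (-0.94) and Tfrc (-0.13) below it. Plod2 and P4ha2 encode collagen hydroxylases. Ak4 did not pass without 4-OHT replicate 3 (adjusted p = 0.055), nor did P4ha2 without any 1 of 4 libraries (4-OHT replicates 1 and 2, control replicates 1 and 2; 0.110 to 0.271), or Tfrc without 4-OHT replicate 2, control replicate 1 or control replicate 3 (0.061 to 0.089). DESeq2 did not call Ndrg1, P4ha2, Stc1 or Tfrc, and of the 4 lower genes of the list it called 2. With limma-voom P4ha2 did not pass either (adjusted p = 0.051).

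In the authors' deposited table all 33 members were listed, of which 10 had an FDR under 0.05 above control and 1 below it, where 3.24% and 3.90% of its genes did. The 1 member called here and not there was Aldoa (authors' deposited table, FDR 0.096). The authors' deposited table gives log2 fold changes of 0.77 for Egln3, 0.50 for Bnip3, 0.24 for Pgk1 and -0.23 for Vegfa.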

How the data were processed

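The authors deposited a matrix of raw read counts, in whole numbers, with a row per Ensembl gene. The authors' deposited comparison table holds log2 values (fold change of 4-OHT over control, and mean CPM) with a p-value and FDR per gene, per the file headers. TopHat2 2.1.0, Bowtie 1.1.2, Bowtie2, bedtools 2.26.0 and edgeR are named, without roles, in the submitters' processing notes, as are the builds GRCm38.p6 and mm10. For the authors' test, the counting program and strand use, the sources used here give nothing.

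Lines that repeated a gene ID with the same counts (27 of 38951) were dropped, leaving 38924 gene IDs. Counts were fitted in R 4.3.3 with edgeR 4.0.16: filterByExpr (minimum count 10, minimum total 15), TMM, robust quasi-likelihood F test, two-sided, with Benjamini-Hochberg over 13355 genes, threshold 0.05. CPM use TMM-scaled library sizes. SE is the size of the log2 fold change over the square root of F, and 95% intervals use it with the total degrees of freedom of the test. DESeq2 1.42.0 and limma 3.58.1 served as alternatives.

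Members and lists were chosen with earlier results of these data known. Named genes were all members, Lin9, and per neighbouring list the 3 called genes with the smallest p, or, in a list without calls, its gene of highest mean CPM; others are marked as named after their values were seen. 1 called gene of the hypoxia-induced list is not reported here. Libraries of a group were not copies of each other: chi-square per degree of freedom was 1.26 to 1.48 between them. The procedure was tested on simulated data before use. There it recovered 36% of 1.15-fold, 68% of 1.25-fold and 96% of 1.5-fold changes (50 genes each). A gene that was not called may thus still have changed by a small amount. Library totals ran from 5859826 to 5913942 reads. Alternatives were other scalings and filters, DESeq2, limma-voom, a replicate block, each library left out, pseudogene reads added to their parents, and protein-coding genes alone.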

Additional observations from a re-analysis of the deposited data

How the results depend on the processing

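Of the 12 members called, 8 (Pgk1, Pgam1, Eno1, Pkm, Ldha, Vegfa, Egln3 and Bnip3) were called under each of the 16 alternatives, and no called member or listed gene changed direction while called. The other 4 were Pfkp, Aldoa, Pdk1 and Egln1, whose losses stand beside their values. DESeq2 called 7 members higher, 0 of the other glycolysis genes higher, 0 genes of pyruvate entry lower and 2 of the other hypoxia-induced genes lower. Leaving out 1 library at a time gave 8 to 11 members higher and 1 lower, 0 to 1 other glycolysis genes higher and 0 to 1 genes of pyruvate entry lower. Over all 13534 to 13557 genes tested in these fits, 403 to 542 were higher and 508 to 643 lower. With the replicate block, 10 members were higher and 1 lower, the Aldoa call being lost (adjusted p = 0.068). Over all 13355 genes that fit called 579 higher and 665 lower. The deviations of same-numbered libraries correlated at 0.011, 0.0092 and -0.17, and those of differently numbered libraries at -0.20 to 0.19. No label says that the numbers pair the libraries, and so few correlations cannot settle it. Scalings moved the median of all genes by at most 0.0094 on the log2 scale. The fit on protein-coding genes was chosen after seeing the data. At this depth Ankrd37, Car9, Car12, Eno2, Ldhb and Hif1a have too few reads for a direction.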

Other observations

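RefSeq pseudogenes held 14.7% to 15.2% of the counted reads with 4-OHT and 14.7% to 15.0% in control. G6pdx, the gene of the first pentose phosphate enzyme, which most cells express, is listed with 0 reads in all 6 libraries, while G6pd2, a related gene, had 25, 34 and 36 reads with 4-OHT and 34, 36 and 29 in control. Fut11, a fucosyltransferase gene of the hypoxia list, was also at 0 in each library.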
